A study of Mus musculus with 6 samples.

Results

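Dendritic cells are the antigen-presenting cells of the immune system, and 9 genes that mark them outside the MHC class II genes were followed here in marrow cells of mice with a myelodysplastic syndrome model. The 9 were taken by symbol from the 17523 genes of the deposited count table, and all 9 were found in it. Of these, 4 are used as marks of plasmacytoid dendritic cells (Siglech, Ly6d, Spib and Cd300c) and 5 of conventional dendritic cells (Batf3, Clec9a, Xcr1, Cd209a and Zbtb46). RNA had been sequenced from FACS-sorted bone marrow of C57BL/6 mice, in 3 wild-type (WT) libraries and 3 libraries of NHD13 mutants, which carry a fusion of NUP98 with HOXD13. The series calls the cells hematopoietic stem cells (HSCs), and asks what the fusion does to their expression. No source used here gives the age of the mice, the sort gate or any pooling of animals. NHD13 transgenic mice are known to express the fusion in blood cells under Vav1 regulatory sequences.

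Both kinds of dendritic cell arise in marrow from progenitors that carry the receptor FLT3. Plasmacytoid dendritic cells depend on the E protein TCF4 and release type I interferon when they sense viral nucleic acids. Conventional type 1 cells need IRF8 and BATF3 and cross-present antigen of dead cells, and conventional type 2 cells present antigen to helper T cells.

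Levels are counts relative to the library total, in the usual unit CPM, scaled by TMM factors for composition and given as mean ± SD over 3 libraries. The libraries held 12541538 to 14388772 counts, so that 1 count was worth 0.0691 to 0.079 CPM and a floor of 3 counts 0.207 to 0.237 CPM. The count row of the fusion was at 0 in every WT library and at 167 to 185 counts in the NHD13 libraries. The labels do not say that the libraries of a group came from different mice, and p-values therefore measure the spread between these libraries, which may be technical in part. Of 15 HSC markers, 12 passed the filter, among them Kit at 254 CPM in WT and 226 in NHD13, Cd34 at 175 and 47, Hlf at 15 and 3.82, Meis1 at 12.6 and 4.49 and Mecom at 1.01 and 6.76. Hoxb5, Procr and Fgd5 did not pass it (2, 14 and 4 counts over WT and 54, 7 and 4 over NHD13). The granule gene Mpo was at 8220 and 6692 CPM. NHD13 replicate 1 stood apart from the other NHD13 libraries (chi-square per degree of freedom 28.33 and 27.87, against 3.459 between replicates 2 and 3). The groups also differed in sex-linked RNA. Summed Y-linked RNA was at 192, 110 and 113 CPM in WT and 252, 280 and 175 CPM in NHD13, and Xist was at 462, 1019 and 1077 CPM in WT and at 2.55, 1.95 and 683 CPM in NHD13. Each WT library and NHD13 replicate 3 thus held RNA of both sexes, while NHD13 replicates 1 and 2 held little Xist. A fit with the Y-linked level as a covariate was therefore run beside the main one. Of the variance of that covariate, 58.2% lay between the groups, so that much of it cannot be told apart from genotype.

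Of the 9 identity genes, 6 passed the filter on low counts and were tested, and Cd300c, Batf3 and Cd209a did not. In NHD13, Siglech, Ly6d, Spib and Clec9a fell and Zbtb46 rose, while Xcr1 stayed short of an adjusted p of 0.05 (edgeR quasi-likelihood test, adjusted over all 12013 tested genes). Over all tested genes 30.3% were called, 15.3% lower and 15.0% higher. Siglech and Ly6d reached the filter level of 0.718 CPM in WT libraries alone, and Clec9a and Xcr1 in 3 WT libraries and 1 NHD13 library. Since these entered the test through their WT level, the number of falls among the tested genes is a description. Over all 9, tested or not, every NHD13 library lay below every WT library for 6 genes and above for 1. Among the 16804 genes with any count this was so for 19.5% in the lower and 17.9% in the higher direction. In bulk RNA such as this, fewer cells of a type and less RNA per cell cannot be told apart.

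**Figure D1:**
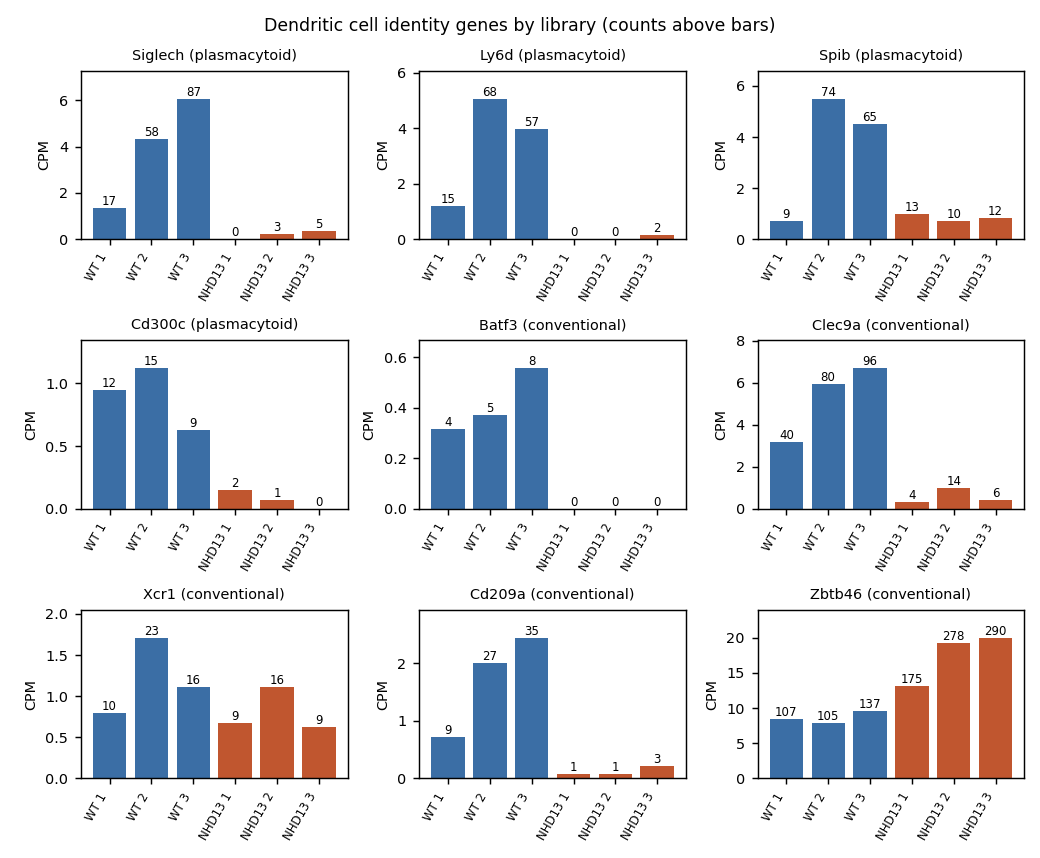
Level of each identity gene in each library, in CPM on a linear axis from 0, with the raw count above each bar; WT libraries are blue and NHD13 libraries orange. Siglech, Ly6d, Cd300c, Batf3, Clec9a and Cd209a are lower in every NHD13 library than in any WT library, and Zbtb46 is higher.

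To set the changes beside the sequence at the genes' starts, RefSeq promoter windows were searched for motifs of dendritic cell regulators. RefSeq windows on GRCm38.p6 (the mm10 assembly), from 250 bases before to 50 bases after a gene's start, were found for 8 of the 9 genes. The 3 shown first are the plasmacytoid gene Siglech and the type 1 gene Clec9a, both of which fell, and Zbtb46, which rose. Batf3 follows for its base composition. Capitals mark matches to any of the 5 motifs searched, on both strands.
Siglech, chr7:55767934-55768233, plus strand: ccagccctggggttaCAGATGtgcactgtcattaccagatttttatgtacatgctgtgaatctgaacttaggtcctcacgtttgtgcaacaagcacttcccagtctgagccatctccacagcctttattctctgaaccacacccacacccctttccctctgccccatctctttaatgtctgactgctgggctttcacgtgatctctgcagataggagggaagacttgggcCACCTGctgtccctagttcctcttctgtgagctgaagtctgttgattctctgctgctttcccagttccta
Clec9a, chr6:129408612-129408911, plus strand: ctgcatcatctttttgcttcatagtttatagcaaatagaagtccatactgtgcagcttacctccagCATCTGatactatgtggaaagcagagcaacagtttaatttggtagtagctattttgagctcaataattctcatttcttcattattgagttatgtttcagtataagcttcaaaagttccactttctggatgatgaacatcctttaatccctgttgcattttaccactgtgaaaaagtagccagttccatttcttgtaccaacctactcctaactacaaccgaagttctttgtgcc
Zbtb46, chr2:181424339-181424638, minus strand: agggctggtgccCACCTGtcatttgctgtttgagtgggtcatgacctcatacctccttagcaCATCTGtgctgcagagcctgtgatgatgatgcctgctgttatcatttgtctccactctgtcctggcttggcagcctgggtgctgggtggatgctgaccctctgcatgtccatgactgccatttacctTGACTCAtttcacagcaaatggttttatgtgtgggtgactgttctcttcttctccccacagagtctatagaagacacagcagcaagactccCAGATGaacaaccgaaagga
Batf3, chr1:191098164-191098463, plus strand: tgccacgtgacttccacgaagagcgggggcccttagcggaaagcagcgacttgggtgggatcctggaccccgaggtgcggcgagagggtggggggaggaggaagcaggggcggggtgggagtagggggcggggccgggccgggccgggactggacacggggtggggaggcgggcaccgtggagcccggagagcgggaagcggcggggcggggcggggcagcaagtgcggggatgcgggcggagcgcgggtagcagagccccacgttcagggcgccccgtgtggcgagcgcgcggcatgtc

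The E-box CAGNTG, the kind of site that E proteins such as TCF4 bind, was present in 6 of the 8 windows and in 51.4% of all 32851 RefSeq promoter windows of the same length. It was found in the windows of Siglech, Clec9a, Spib, Cd300c, Cd209a and Zbtb46, so in genes that were lower and in the gene that was higher in NHD13. The AP-1 letters TGANTCA, which BATF3 binds with JUN, were in the Zbtb46 window alone among the 8 (7.81% of all windows). They lay 61 to 55 bases before the RefSeq start used. The composite letters GGAANNGAAA of IRF8 with PU.1 or SPIB were in the Cd209a window (2.72% of all) and the interferon-response letters GAAANNGAAA in the Cd300c window (3.44% of all). The ETS letters AGGAAGT were in none of the 8 and in 9.35% of all windows. The Batf3 window held 34 CpG pairs at 75.7% GC against a median of 7 over all windows, and those of the other 7 genes held 1 to 6. The windows of Zbtb46, Cd300c and Batf3 lie at RefSeq starts inside longer GENCODE gene spans. That of Zbtb46 (181424339 to 181424638, minus strand) lies far inside a gene that begins at 181459426. Its matches, the AP-1 letters among them, are therefore not at the outer start of the gene and may lie outside a promoter. A match is only a match of letters, and no binding was measured.

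Among the plasmacytoid genes, Siglech encodes a lectin of the sialic acid-binding Siglec family that marks mouse plasmacytoid cells (mm10 chromosome 7, 55768178 to 55778925). It had 17, 58 and 87 counts in WT replicates 1 to 3 and 0, 3 and 5 in NHD13 replicates 1 to 3. In CPM this was 1.34, 4.31 and 6.06 against 0, 0.208 and 0.345, with no overlap of the groups and with WT replicate 1 nearest to NHD13. The mean went from 3.9 CPM ± 2.38 to 0.185 CPM ± 0.174 (n = 3 each), a 19.9-fold fall (log2 change -4.32, SE 0.76, edgeR adjusted p = 0.00512). Once Y-linked RNA was a covariate, the log2 change was -2.40 and the call was lost (adjusted p = 0.131). Without NHD13 replicate 3, which held 5 of the 8 NHD13 counts, it was -5.09 (adjusted p = 0.0134). Leaving out the NHD13 library with the most counts steepens a fall by construction, here and for the genes below.

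Ly6d, a GPI-anchored surface protein that also marks lymphoid progenitors on the way to B cells (chromosome 15, 74762056 to 74763620), had 15, 68 and 57 counts in WT and 0, 0 and 2 in NHD13. Its WT level was 1.18, 5.06 and 3.97 CPM, and 2 of the 3 NHD13 libraries had none. The ratio of WT to NHD13 over the summed counts was 73.0, with an exact (Clopper-Pearson) 95% counting interval of 19.8 to 609. That interval covers counting error only. The fall passed the test (edgeR adjusted p = 0.00308), also with the Y-linked covariate (adjusted p = 0.0493), where Ly6d was the only identity gene still called. The fitted log2 change was -5.93, and -3.89 with that covariate. Without NHD13 replicate 3, which held both NHD13 counts, it was -8.56 (adjusted p = 0.0111), a size set by a group at 0 counts.

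Spib encodes an ETS transcription factor needed for plasmacytoid cells and active in B cells (chromosome 7, 44525993 to 44532071). It had 9, 74 and 65 counts in WT and 13, 10 and 12 in NHD13. WT replicate 1, at 0.711 CPM, was inside the NHD13 range of 0.695 to 0.974 CPM, while WT replicates 2 and 3 were at 5.5 and 4.53 CPM. The fall from 3.58 CPM ± 2.53 to 0.833 CPM ± 0.14 (n = 3 each) was 4.31-fold (log2 change -2.11, SE 0.63, edgeR adjusted p = 0.0354). It rested on WT replicates 2 and 3. Without WT replicate 1 the log2 change was -2.60 (adjusted p = 0.00165). Leaving out WT replicate 2 ended the call (adjusted p = 0.14), as did leaving out WT replicate 3 (0.12), or any of NHD13 replicates 1 to 3 (0.113, 0.106 and 0.0922), the use of limma-voom (0.145) and testing with no filter on low counts (0.0922). Beside the Y-linked covariate the log2 change was 0.03 (adjusted p = 0.985). Under a filter of at least 1 CPM in 3 libraries Spib was not tested.

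Cd300c, an immunoglobulin-family receptor of myeloid and plasmacytoid cells in the Cd300 cluster (chromosome 11, 114956116 to 114969157), had 12, 15 and 9 counts in WT and 2, 1 and 0 in NHD13. Its WT libraries lay close together, with a highest-to-lowest ratio of 1.78, and the groups did not overlap. The summed counts gave a WT to NHD13 ratio of 12.5 (95% counting interval 3.95 to 63.5). It was set aside by the filter, and in the fit with no filter it passed (edgeR log2 change -3.49, adjusted p = 0.00273). Without NHD13 replicate 1, which held 2 of the 3 NHD13 counts, the log2 change was -4.36 (adjusted p = 0.00096). Cd300c entered that fit through its WT level. Reads of the near copies in this cluster may be shared.

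Among the conventional genes, Clec9a is the type 1 cell's lectin receptor for actin of dead cells (chromosome 6, 129408862 to 129424763). It had 40, 80 and 96 counts in WT and 4, 14 and 6 in NHD13. At 3.16, 5.95 and 6.68 CPM against 0.3, 0.973 and 0.414 CPM the groups were clearly apart. The mean fell from 5.26 CPM ± 1.86 to 0.562 CPM ± 0.36 (n = 3 each), 9.19-fold (log2 change -3.20, SE 0.44, edgeR adjusted p = 0.00184). The Y-linked covariate left a log2 change of -2.52 and ended the call (adjusted p = 0.0802), and without NHD13 replicate 2 it was -3.86 (adjusted p = 0.00346). In the GENCODE annotation exons of Clec9a overlap those of Clec1b, a platelet lectin gene on the same strand, so the split of reads is uncertain. Clec1b had 33 WT and 25 NHD13 counts (adjusted p = 0.358).

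Batf3, the bZIP factor on which type 1 cells depend (chromosome 1, 191097847 to 191108945), had 4, 5 and 8 counts in WT and 0 in every NHD13 library. Against a floor of 3 counts over the NHD13 group, its WT level was 5.91-fold higher, a value that leaves out the counting error of the WT counts. It was too low for the main test. With no filter it passed (edgeR adjusted p = 0.00708), though a fitted change against 0 counts has no fixed size. Cd209a, a C-type lectin of type 2 and monocyte-related dendritic cells (chromosome 8, 3743397 to 3748984), had 9, 27 and 35 counts in WT and 1, 1 and 3 in NHD13, a ratio of 14.8 (95% counting interval 6.06 to 47). It too was set aside by the filter, and with no filter the log2 change was -3.77 (adjusted p = 0.00108). Without NHD13 replicate 3, which held 3 of the 5 NHD13 counts, it was -4.44 (adjusted p = 0.0128). Cd209a entered that fit through its WT level.

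Xcr1, the receptor for the chemokine XCL1 on type 1 cells (chromosome 9, 123852315 to 123862029), had overlapping groups, unlike Clec9a and Batf3. Its counts were 10, 23 and 16 in WT and 9, 16 and 9 in NHD13, which is 0.79 to 1.71 CPM against 0.622 to 1.11 CPM. The log2 change was -0.58 (SE 0.39) and did not pass the threshold (edgeR adjusted p = 0.277). The counting interval of the WT to NHD13 ratio, 0.951 to 2.4 around 1.5, covers no change as well as a 2.4-fold difference, and lies below the interval of Clec9a (6.14 to 15). Such intervals cover counting error only, and the difference between these genes was not tested.

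Zbtb46 went the other way. It encodes a zinc finger factor of conventional dendritic cells that is also known from erythroid progenitors and endothelium (chromosome 2, 181387762 to 181459426). It had 107, 105 and 137 counts in WT and 175, 278 and 290 in NHD13, and the groups did not overlap. The mean rose from 8.6 CPM ± 0.874 to 17.5 CPM ± 3.8 (n = 3 each), 2.03-fold (log2 change 1.02, SE 0.18, edgeR adjusted p = 0.00492). Adding the Y-linked covariate left a log2 change of 1.14 but ended the call (adjusted p = 0.0813). Within NHD13 the lowest library was replicate 1, at 13.1 CPM against 19.3 and 20 CPM. The summed erythroid markers were likewise lowest in replicate 1 within NHD13, at 1110, 1940 and 1910 CPM against 948, 966 and 1060 CPM in WT. Of 5 tested, 4 rose (3 to 5 with 1 library left out, 0 with the Y-linked covariate, where 4 had an unadjusted p under 0.05), among them Klf1, the erythroid KLF factor (2.29-fold, adjusted p = 0.00221), and Epor, the erythropoietin receptor gene (2.38-fold, adjusted p = 0.00469). Both calls were lost with the covariate (adjusted p = 0.0527 and 0.0675). Their part in the Zbtb46 result was not tested.

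**Figure D2:**
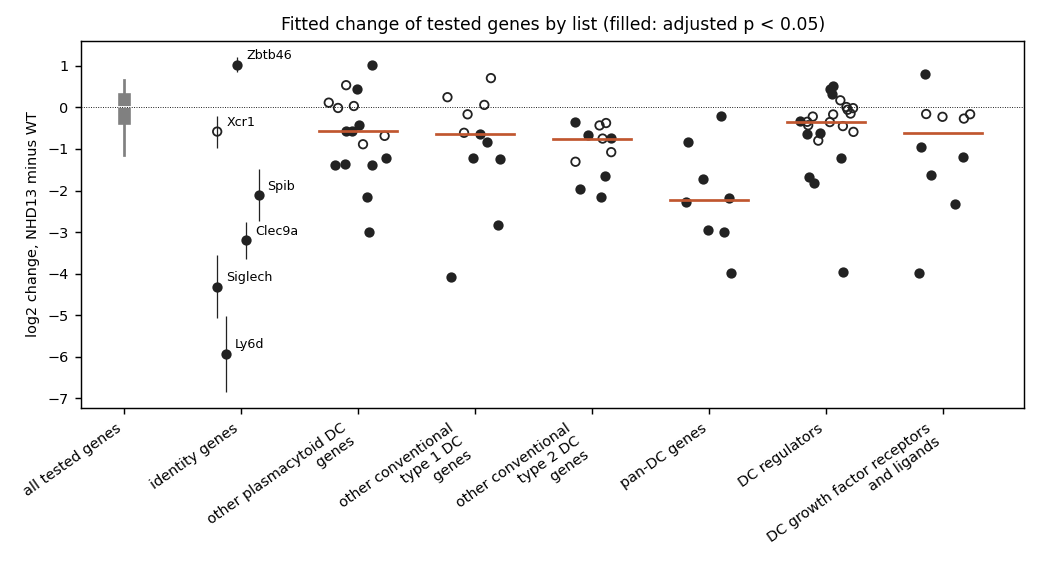
Fitted log2 change, NHD13 minus WT, of tested identity genes (with SE bars) and of tested genes of 6 further dendritic cell lists. Filled points passed an adjusted p of 0.05, orange lines are list medians, and the grey bar at the left gives the middle 50% and the grey line the middle 90% of all tested genes. Identity genes run from Ly6d at -5.93 to Zbtb46 at 1.02.

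Per kilobase of exon, which allows levels of different genes to be set side by side, the order in WT was Ly6d (4.58 CPM per kb ± 2.68), Clec9a (1.6 ± 0.565), Spib (1.25 ± 0.883), Siglech (1.15 ± 0.705), Cd209a (1.09 ± 0.568), Zbtb46 (1.01 ± 0.103) and Cd300c (0.842 ± 0.233), followed by Xcr1 (0.271 ± 0.105) and Batf3 (0.26 ± 0.079). From Clec9a to Cd300c neighbours in that order were closer than their spread, and so were Xcr1 and Batf3. The WT libraries of Ly6d and Clec9a overlapped on this scale. In NHD13 the order was led by Zbtb46 at 2.06 CPM per kb ± 0.447, and Spib came next at 0.29 ± 0.0487, then Xcr1 at 0.18 ± 0.0604 and Clec9a at 0.171 ± 0.109, these last a pair closer than their spread. All others were below 0.1 CPM per kb. These are levels of a mixed sample. Zbtb46 was thus the most abundant identity gene per kilobase in NHD13 and among the middle ones in WT.

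WT libraries differed among themselves in most identity genes that fell. WT replicate 1 held 34.4% of the WT mean for Siglech, 34.8% for Ly6d, 19.9% for Spib, 41.4% for Cd209a and 60% for Clec9a. It held 65.6% for Xcr1 and 76.1% for Batf3, and 106% for Cd300c and 98.3% for Zbtb46. All 9 identity genes summed to 17.6, 33.8 and 35.5 CPM over the WT libraries, against 15.3, 22.4 and 22.6 CPM over the NHD13 ones. In that full sum the groups overlapped, with WT replicate 1 below NHD13 replicates 2 and 3. Without Zbtb46, left out because it rose, the sums were 9.16, 26 and 26 CPM against 2.17, 3.13 and 2.56 CPM. Each NHD13 library was below WT replicate 1 in the sum without Zbtb46, a separation that this choice favours. The highest-to-lowest ratio among WT libraries was 7.74 for Spib, 4.51 for Siglech and 4.27 for Ly6d, then 3.43 for Cd209a, 2.17 for Xcr1, 2.12 for Clec9a, 1.78 for Cd300c, 1.76 for Batf3 and 1.22 for Zbtb46. The plasmacytoid genes Spib, Siglech and Ly6d thus led that order, and Cd300c alone of the plasmacytoid genes stood among the conventional ones. WT replicate 1 was also the WT library with the highest Y-linked and lowest Xist RNA, and their part in its low values was not tested.

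Markers of other cell types that share these genes or a progenitor with dendritic cells moved as well. Their counts stand beside 15.3% lower and 15.0% higher over all tested genes. B-lineage markers, which bear on Ly6d and Spib, had a sum of 49.9, 89.6 and 91.8 CPM over WT libraries and of 19.4 to 20.5 CPM over NHD13 ones. WT replicate 1 was again the lowest in WT. Of the 10 that were tested, 7 fell and 0 rose by edgeR, 5 fell by limma-voom, and 1 fell with the Y-linked covariate (4 at an unadjusted p under 0.05). The count was 4 without WT replicate 2, WT replicate 3 or NHD13 replicate 2, and none of the 15 was at 0 in every library. The most abundant of them in WT was Dntt, the terminal transferase of early lymphoid cells (1561 and 61 counts), and defining B-cell genes were near the floor, with Pax5 at 8 and 5 counts and Ms4a1 at 11 and 0. Monocyte and macrophage markers, of which Ccr2, Csf1r and Klf4 also stand on the dendritic cell lists, had a sum of 1270 to 1580 CPM in WT libraries against 426 to 662 CPM in NHD13 ones (9 of 10 tested fell). For basophil and mast cell markers it was 422 to 723 CPM against 93.1 to 145 CPM, and all 6 tested fell. Both counts were the same with any 1 library left out, and were 5 and 5 with the covariate. For neutrophil markers the sum was 45200 to 60100 CPM against 35000 to 37800 CPM. Of 10 tested, 6 fell, but 0 with the covariate (edgeR; 0 also at an unadjusted p under 0.05). Without NHD13 replicate 1 none of these 6 was called, and 2 others, Elane and Mpo, fell. The neutrophil count was 3 without WT replicate 2 or WT replicate 3. For HSC markers the sum was 602 to 636 CPM against 358 to 434 CPM. Of 12 tested, 7 fell and 1 rose, and with the covariate 2 and 1. Without WT replicate 2 or 3 or NHD13 replicate 2 the number that fell was 4, and leaving out any library but NHD13 replicate 1 gave 2 that rose. T and NK markers overlapped, at 198 to 250 CPM against 130 to 239 CPM. Of 6 tested, 3 fell, and 0 with the covariate (2 at an unadjusted p under 0.05). More of these genes passed the filter when a library was left out. The calls were then 2 of 8 tested without WT replicate 2 and 2 of 7 without WT replicate 3. They were 6 of 9 without WT replicate 1 and 6 of 8 without NHD13 replicate 1. The part of these other cells in the identity gene values was not tested.

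**Figure D3:**
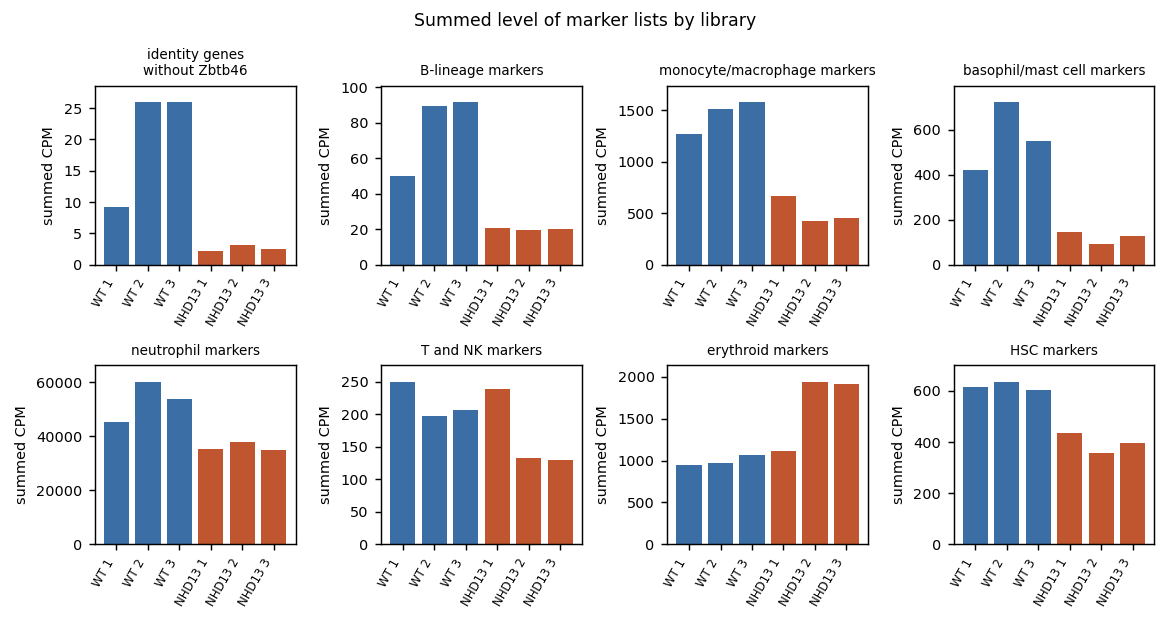
Summed CPM of marker lists in each library, linear axes from 0, WT in blue and NHD13 in orange. The identity genes without Zbtb46 fall from 9.16 to 26 CPM in WT to 2.17 to 3.13 CPM in NHD13. B-lineage, monocyte, basophil, neutrophil and HSC lists are also lower, the T and NK list overlaps, and the erythroid list is higher. With Zbtb46, which rose, the identity gene sums overlap (17.6 to 35.5 CPM in WT and 15.3 to 22.6 CPM in NHD13, not drawn).

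The wider dendritic cell program was read from 94 further genes in 6 lists, all found in the table. Of 77 tested, 39 fell and 5 rose, with a median log2 change of -0.61 against 0.00 over all tested genes. Over all tested genes 15.3% fell and 15.0% rose. The lists were drawn up with earlier results of these data known, and 11 of the 77 reached the filter level in all 3 WT libraries but not in all 3 NHD13 libraries. Under the Y-linked covariate 10 fell and 0 rose by edgeR (30 and 5 at an unadjusted p under 0.05). Leaving out NHD13 replicate 1 gave 53 that fell and 9 that rose, and leaving out replicate 1 of both groups 59 and 9. The same 2 fits raised the numbers over all genes as well. Those lower went from 1839 to 2966 and 3245, and those higher from 1799 to 3012 and 3244. Every one of the 8 tested pan-dendritic genes fell. Flt3, the growth factor receptor of dendritic cell progenitors, had a level of 43.7 CPM ± 11.5 in WT libraries and 2.75 CPM ± 1.7 in NHD13 ones, a 15.8-fold fall (adjusted p = 0.000229). The peptidase gene Dpp4 was at 27.9 CPM ± 3.51 and 6.16 CPM ± 0.882, a 4.54-fold fall (adjusted p = 6.59e-05). Kmo, an enzyme of tryptophan breakdown, fell 4.88-fold (adjusted p = 0.00123), the inhibitory receptor gene Btla 3.33-fold (0.000658) and the cystatin gene Cst3 1.77-fold (0.00158). The calls of Kmo and Cst3 were lost with the Y-linked covariate (adjusted p = 0.0653 and 0.0669).

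Of the 17 tested among 20 other plasmacytoid genes, 9 fell and 2 rose. The 2 that rose are no more than the 15.0% share over all tested genes. Tcf4, the E protein that fixes plasmacytoid fate, rose from 47.6 CPM ± 1.68 to 65.1 CPM ± 4.45 (1.37-fold, edgeR adjusted p = 0.00431) while Siglech and Spib fell. Runx2 fell 2.6-fold (adjusted p = 0.000843), from 59.4 CPM ± 9.59 to 22.9 CPM ± 4.41. Upb1, a pyrimidine breakdown enzyme gene, fell 8.03-fold (0.00658), Mctp2 2.32-fold (0.00564) and the collagen receptor gene Lair1 1.48-fold (0.00581). The interferon regulator gene Irf7, the other one that rose, went from 10.8 to 21.7 CPM (adjusted p = 0.0213). Its call was lost without WT replicate 1 or 2 or NHD13 replicate 2 or 3 (adjusted p = 0.0689, 0.0796, 0.0791 and 0.0695) and with no filter (0.0553). The Y-linked covariate ended the call of each of these 6 genes (adjusted p = 0.0559 for Tcf4, 0.0537 for Runx2, 0.172 for Upb1, 0.201 for Mctp2, 0.08 for Lair1 and 0.102 for Irf7). Cox6a2, chosen here after its values were seen, was set aside by the filter with 52 counts over the WT libraries and 1 over NHD13. Without WT replicate 3, 5 of the plasmacytoid genes fell.

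Of 11 tested among 16 other type 1 genes, 6 fell and 0 rose (edgeR; 0 also at an unadjusted p under 0.05). Ifi205, an interferon-inducible gene of a family of close copies, was at 2.57 CPM ± 0.489 and 0.142 CPM ± 0.00656, a 17-fold fall (adjusted p = 0.000261). Tlr3, the sensor of double-stranded RNA on type 1 cells, fell 7.14-fold (0.00384), Rab7b 2.38-fold (0.00338), the lipid amidase gene Naaa 2.31-fold (0.00133) and the endocytic receptor gene Ly75 1.77-fold (0.0026). The covariate ended the calls of Tlr3, Naaa and Ly75 (adjusted p = 0.123, 0.0762 and 0.107). Without NHD13 replicate 1, 2 type 1 genes rose. Of 11 tested among 15 other type 2 genes, 6 fell and 0 rose (edgeR; 0 also at an unadjusted p under 0.05). The fractalkine receptor gene Cx3cr1 fell 3.13-fold (0.000346), the lectin gene Clec10a 3.89-fold (0.000658), Cd7, which also stands on the plasmacytoid list, 4.47-fold (0.00739), the Fc receptor gamma chain gene Fcer1g 1.68-fold (0.00625) and the lipid-presenting gene Cd1d1 1.58-fold (0.00897). The last 3 calls were lost with the covariate (adjusted p = 0.256, 0.223 and 0.174). Without WT replicate 1, 10 of the type 2 genes fell.

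Among 23 tested regulators of dendritic cell fate, 7 fell, 3 rose and 13 did not pass. A rise in 3 of 23 is no more than the 15.0% share over all tested genes. Irf8, needed for type 1 cells and expressed in plasmacytoid ones, was at 279 CPM ± 45.6 and 79 CPM ± 28.9, a 3.53-fold fall (edgeR adjusted p = 0.0014). Mycl, a MYC family factor of type 1 cells, was at 3.44 CPM ± 1.53 and 0.211 CPM ± 0.18, a 15.6-fold fall (0.0024). Klf4 fell 3.2-fold (0.00156) and Zeb2 1.53-fold (0.000843). Beside the covariate Klf4 stayed past the threshold and Irf8, Zeb2 and Mycl did not (adjusted p = 0.0672, 0.0564 and 0.0508). The 3 that rose were Tcf4, Bcl11a (1.43-fold, 0.00552) and Stat5a (1.24-fold, 0.0298), the latter 2 named after their values were seen. The covariate ended the calls of Bcl11a (adjusted p = 0.119) and Stat5a (0.198). The call of Stat5a was also lost without WT replicate 1, 2 or 3 (0.0949, 0.071 and 0.104), without NHD13 replicate 2 or 3 (0.128 and 0.106) and with upper-quartile factors (0.0501). Without NHD13 replicate 1, 15 regulators fell.

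Of 10 growth factor receptors and ligands, 5 fell and 1 rose. Besides Flt3, the chemokine receptor gene Ccr2 was at 162 CPM ± 32.7 and 32.2 CPM ± 1.19, a 5.03-fold fall (edgeR adjusted p = 5.53e-05). The M-CSF receptor gene Csf1r fell 3.06-fold (0.00061), the IL-3 receptor gene Il3ra 2.29-fold (0.00166) and Csf2rb2 1.95-fold (0.016). The call of Csf2rb2 was lost without WT replicate 2 (0.0672), WT replicate 3 (0.0653) or NHD13 replicate 2 (0.06), and those of Il3ra and Csf2rb2 with the covariate (0.08 and 0.528). Flt3l, the ligand of FLT3, was the gene that rose, from 7.21 CPM ± 0.844 to 12.7 CPM ± 3.21 (adjusted p = 0.0186). Its call was lost without WT replicate 1 or 3 or NHD13 replicate 2 or 3 (0.0625, 0.0788, 0.074 and 0.0677) and with the covariate (0.14). Without NHD13 replicate 1, 9 of these 10 genes fell.

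Relatives and neighbours of the identity genes were counted without those genes. In the Cd300 family 2 of 5 tested fell, Cd300lg 7.4-fold (edgeR adjusted p = 0.000806) and Cd300a 1.71-fold (0.00175). Cd300lg lies outside the cluster that holds Cd300c, at 102041509 to 102055620 of chromosome 11. All 6 tested Ly6 genes fell, Ly6e from 614 to 401 CPM (0.00575), Ly6i from 24.9 to 14 CPM (0.0122), and Ly6f, Ly6a, Ly6c1 and Ly6c2 with adjusted p of 0.0237, 0.0409, 0.0436 and 0.0438. Only Ly6e and Ly6i stayed past the threshold without WT replicate 2, NHD13 replicate 2 or NHD13 replicate 3, 3 genes did without WT replicate 3, 4 without WT replicate 1 and 5 without NHD13 replicate 1. Of 6 tested genes around Clec9a, 2 fell, the fungal glucan receptor gene Clec7a 2.25-fold (0.000806) and Clec2d 1.69-fold (0.000806). The covariate ended the calls of Cd300a (0.0924), Ly6e (0.102), Ly6i (0.349) and Clec2d (0.0513). The covariate left 0 of the 6 Ly6 genes. In the Siglec family 3 of 6 tested fell, Cd22, Siglece and Cd33 (edgeR adjusted p = 0.0017, 0.0114 and 0.025), and 0 did with the covariate. The call of Cd33 was also lost without WT replicate 2, WT replicate 3 or NHD13 replicate 3 (0.09, 0.069 and 0.0729) and without NHD13 replicate 1 (0.0521), where Siglecf passed (0.00442). Among the chemokine receptors 3 of 5 fell. Leaving out replicate 2 or 3 of either group left 1 such call, and so did the covariate. Among the relatives of Zbtb46, 1 of 5 tested rose and 1 fell, with 0 that rose without WT replicate 3 or NHD13 replicate 2. Among those of Batf3 and its partners 1 of 6 rose and 2 fell, with 4 that fell without NHD13 replicate 1 while the rise of Jund was lost without replicate 1 or 3 of WT or replicate 2 or 3 of NHD13. With the covariate 0 in either family passed. Over all tested genes 15.3% fell and 15.0% rose, so 1 of 5 or 1 of 6 is near that share. How far an identity gene differs from its relatives was not tested. Cd209c, a paralog of Cd209a, was at 4.76 CPM ± 0.885 and 5.69 CPM ± 1.53 with no call (adjusted p = 0.432). Spi1, which encodes the SPIB relative PU.1 and was found under an older symbol, was at 200 CPM ± 21.1 and 157 CPM ± 24.9 and did not pass (adjusted p = 0.0529), and Batf, the relative of Batf3, was at 10.7 and 8.15 CPM (0.0554). Without NHD13 replicate 1 both passed (edgeR adjusted p = 0.000457 for Spi1 and 0.0171 for Batf). Both also passed in edgeR with upper-quartile factors (0.0414 and 0.0395) and with the replicate number as a block (0.0402 and 0.0487). Spi1 passed as well with DESeq2 (0.0309), limma-voom (0.049) and edgeR without TMM (0.0379), so that its missing call depends on the setting.

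The 5 genes with the most similar profile were found among 10149 tested genes whose mean log2 CPM was 2 or more. The profile was the mean centred log2 CPM of the 6 tested identity genes over the 6 libraries, which was 0.09, 1.43 and 1.39 in WT replicates 1 to 3 and -1.35, -0.78 and -0.79 in NHD13. Plekhg1 was nearest, with a root mean square difference of 0.221 on the log2 scale, followed by Stk39 (0.241), Ptpro (0.259), Il10ra (0.267) and Rnase6 (0.278). Il10ra, the receptor chain for interleukin 10, was at 12, 21.6 and 17.8 CPM in WT and 4.27 to 4.66 CPM in NHD13. Plekhg1 was at 8.77, 16.3 and 13.5 CPM in WT and 2.02 to 3.68 CPM in NHD13. In all 5, WT replicate 1 was the lowest WT library, which their choice by this profile favours. Likeness over 6 libraries is a description, and the libraries share the group difference.

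**Figure D4:**
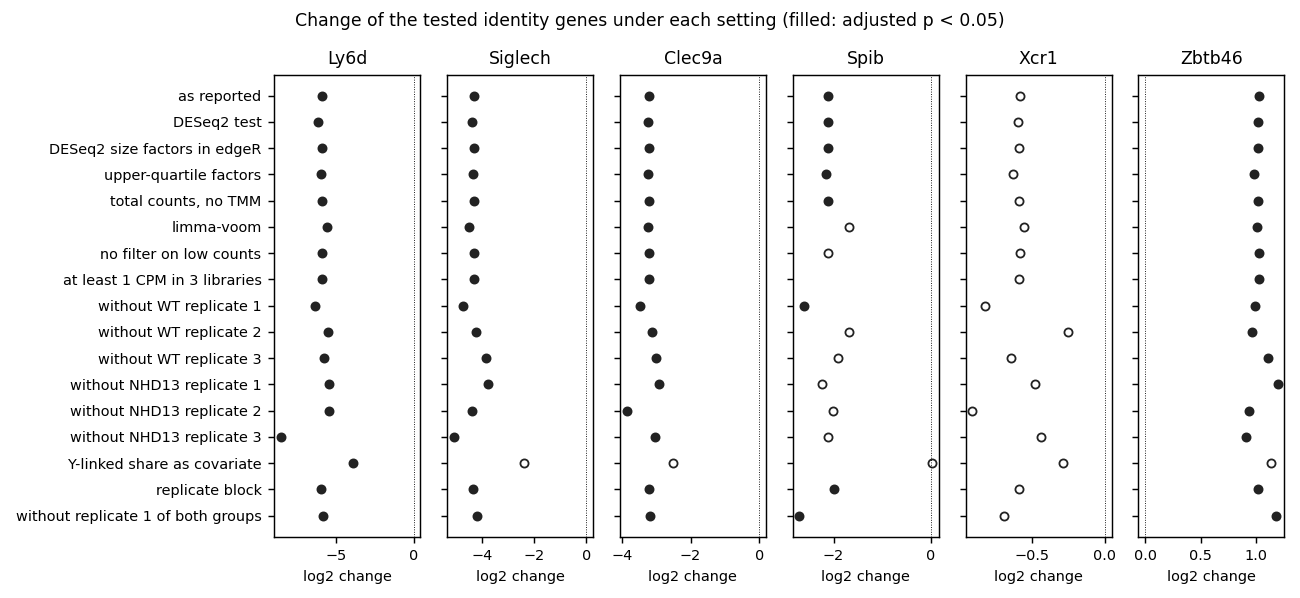
Log2 change, NHD13 minus WT, of the 6 tested identity genes under each setting of test, scaling, filter and libraries; filled points passed an adjusted p of 0.05, and each panel has its own axis. Ly6d is filled throughout, Siglech, Clec9a and Zbtb46 are open with the Y-linked covariate alone, and Spib is open in 8 settings. Spib has no point under the filter of at least 1 CPM in 3 libraries, which it did not pass.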

How the data were processed

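The deposited table holds raw counts per gene and library, deposited by the authors as whole numbers. The submitters' processing notes name the aligner Bowtie2 (2.2.1), the counter HTSeq (0.5.4p3) and the build mm10. No source used here gives the annotation, strand setting or filters on reads. Columns were matched to samples by their titles, the NHD13 columns by the letter N and the replicate number. The members and gene lists were chosen with earlier results of these data known.

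Genes were kept by filterByExpr (minimum count 10), which set 5510 aside, and scaled by TMM. NHD13 was compared with WT by the two-sided quasi-likelihood F test of edgeR 4.0.16 (R 4.3.3) with robust estimation, and p-values were adjusted over all tested genes by the Benjamini-Hochberg method. The SE is the log2 change over the square root of F. The code was tested on simulated data. Alternatives were DESeq2 1.42.0, limma-voom (limma 3.58.1), other scalings and filters, each library left out, replicate number as a block, and the log2 of the Y-linked CPM plus 1 as a covariate. The text names the members, up to 5 genes of each list with the lowest p (the 2 most abundant where none passed), defining markers of other cell types and the 5 genes nearest in profile. Of the list genes, 5 were found by an older symbol and 8 were not found. Positions and exon lengths are those of GENCODE vM21 on GRCm38 (mm10), promoter sequences from RefSeq (GRCm38.p6). No pair of libraries differed by as little as sampling noise (chi-square per degree of freedom at least 3.459).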

Additional observations from a re-analysis of the deposited data

How the results depend on the processing

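For the 6 tested identity genes, 84 of 95 values under other settings kept their direction and their side of the threshold, 10 were no longer past it and 1 reversed, the log2 change of Spib with the Y-linked covariate (0.027). Spib has no value under the filter of at least 1 CPM in 3 libraries, where 5 identity genes were tested. The number of identity genes that fell ran from 4 to 5 and the number that rose was 1 with any 1 library left out. These were not always the same genes. Spib kept its call in these fits only without WT replicate 1, and Cd300c or Cd209a, passing the filter through the WT level, was called in each. With the Y-linked covariate 1 fell and 0 rose by edgeR (3 and 1 at an unadjusted p under 0.05). Over the other dendritic cell genes, leaving out 1 library gave 30 to 53 that fell and 2 to 9 that rose, the most without NHD13 replicate 1, the covariate gave 10 and 0, and leaving out replicate 1 of both groups 59 and 9. Over all genes, leaving out 1 library gave 760 (without NHD13 replicate 2) to 3012 (without NHD13 replicate 1) higher and 957 (without WT replicate 2) to 2966 (without NHD13 replicate 1) lower, against 1799 and 1839 in full. Omitting WT replicate 2, WT replicate 3 or NHD13 replicate 3 moved the higher count to 828, 806 and 836, and the lower one to 978, 1069 and 1104 without WT replicate 3, NHD13 replicate 2 and NHD13 replicate 3. The covariate left 103 and 193, and leaving out replicate 1 of both groups gave 3244 and 3245. The cause of these shifts was not tested. With upper-quartile factors 1427 were higher and 2132 lower. With the replicate number as a block, 2007 genes were higher and 2233 lower, and the identity gene calls were unchanged (4 fell, 1 rose). The block gave 11 type 2 genes and 11 regulators that fell (6 and 7 without it), and DESeq2 11 regulators. By list, the covariate left 0 plasmacytoid, 2 type 1, 2 type 2 and 3 pan-dendritic genes, 1 regulator and 3 receptors that fell, and 0 that rose. Replicate numbers share no stated source. Deviations of same-numbered libraries correlated at 0.249, 0.0632 and 0.175 across genes, and NHD13 replicate 2 correlated better with WT replicate 3 (0.149) than with its own number. Depth limits Batf3, Cd300c and Cd209a, which the main filter set aside.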
